A study of Sus scrofa with 12 samples.

Results

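The 10 genes described here are *GABARAP*, *GABARAPL1*, *GABARAPL2*, *MAP1LC3A*, *MAP1LC3B*, *SQSTM1*, *ULK1*, *BNIP3*, *BNIP3L* and *ATG12*, which belong to autophagy and to mitophagy. They were chosen by name and function, with earlier results of these data known, and all 10 were found among the 28212 annotated genes considered, 13311 of which had an assembled transcript assigned to them. The *Longissimus dorsi* (loin) muscle of 12 Iberian pigs was sequenced with 1 library per animal, 6 from Tough animals and 6 from Tender ones. The animals were castrated males of a closed purebred line, fattened free-range on acorns and grass, taken at the extremes of the breeding value for shear force and chosen to share no parent. Shear force, the force needed to cut the cooked meat, was 7.32 to 10.63 kg/cm2 in Tough animals and 2.18 to 3.43 kg/cm2 in Tender animals. The groups therefore differ in shear force by selection, and nothing was given to either group that the other did not receive. The study also reports less intramuscular fat in the Tough group than in the Tender group. The study's methods give a common approximate slaughter age for the animals, and no source used here gives the fattening batch or the sequencing lane of each.

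Autophagy encloses part of the cytoplasm in a double membrane, the autophagosome, and delivers it to the lysosome for breakdown. The ULK1 kinase starts the process, and a conjugate that holds ATG12 then attaches proteins of the ATG8 family (the LC3 and GABARAP proteins) to a lipid of the growing membrane. SQSTM1 (p62) binds ubiquitin-tagged cargo and ATG8 proteins at the same time, while BNIP3 and BNIP3L (NIX) sit in the outer mitochondrial membrane and bring mitochondria to the same machinery, a process called mitophagy. In skeletal muscle this pathway removes proteins and organelles during fasting, exercise and disuse, and several of its genes are known targets of FOXO transcription factors.

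The levels are in FPKM, a fragment count divided by the length of the transcript and by the size of the library. Because the loin holds several cell types, fewer cells of a type and less RNA per cell cannot be told apart. The marker sums below are per exon base, with only bases on annotated exons counted. The counts of marker genes higher in a group come from fits by whole transcript length. The summed markers of muscle fibres (8 genes listed, 7 tested and 6 higher in Tough) were at 18563 to 25612 FPKM in Tough libraries and at 13589 to 24697 FPKM in Tender libraries. These sums hold *CKM*, which was listed at 0 in Tough 5, Tough 6, Tender 2 and Tender 3 and at 1241 to 4615 FPKM in the others. Those of red blood cells (6 genes listed, 2 tested and both higher in Tender) were at 105 to 185 FPKM in Tough libraries and at 213 to 315 FPKM in Tender libraries, with no overlap, although *SLC4A1*, which encodes their anion exchanger, was at 0 in all 12. Endothelial markers reached 14.7 to 31.2 FPKM in Tough libraries and 24.0 to 38.6 FPKM in Tender libraries, and the estimates of all 4 listed genes were higher in Tender. The summed macrophage, adipocyte and smooth muscle markers overlapped between the groups, as the endothelial ones did. Of the 5 macrophage genes tested, 4 had estimates higher in Tender. Of the 3 adipocyte genes tested, 2 were higher in Tender, and all 3 smooth muscle genes were higher in Tough. The part of these cells in the values given here was not tested.

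The ATG8 proteins are made with a tail that the protease ATG4 removes after a glycine, and the exposed glycine is the residue joined to the membrane lipid. The last 30 coding bases of the 5 ATG8 genes show where they differ at this site, with the codon of that glycine in capitals, read from the Sscrofa11.1 genome on the coding strand:
GABARAP: tacagtgatgaaagtgtctatGGTctgtga
GABARAPL1: tacagcgacgagagtgtctacGGGgagtga
GABARAPL2: tacagtggagagaacacgtttGGCttctga
MAP1LC3A: tacgcctcccaggaaaccttcGGCttctga
MAP1LC3B: gagactttcGGAatgaagttgtctgtgtaa
A single codon followed the glycine in 4 of the genes and 5 codons in *MAP1LC3B*, before the stop codon. The 5 genes lie apart: *GABARAP* on chromosome 12 (52596130 to 52598166, minus strand), *GABARAPL1* on chromosome 5 (61758127 to 61767427, minus), *GABARAPL2* on chromosome 6 (12122219 to 12132986, minus), *MAP1LC3B* on the same chromosome (1919879 to 1941069, minus) and *MAP1LC3A* on chromosome 17 (37957830 to 37959505, plus). Their coding sequences were 57.0% identical for *GABARAPL1* and *MAP1LC3A*, the lowest of the 10 pairs, and 76.8% for *GABARAP* and *GABARAPL1*, the highest.

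The receptors carry the matching part, the LC3-interacting region, a short motif whose aromatic residue and leucine (or a similar residue) fit pockets of the ATG8 proteins. The 30 coding bases around it are shown for the 3 receptors, with the tryptophan and the leucine codons in capitals:
SQSTM1: gacgatgacTGGacccatTTAtcttccaaa
BNIP3: cacggctccTGGgtagaaTTGcactttggc
BNIP3L: aacagttccTGGgtggagCTAcccatgaat
The *SQSTM1* bases are at 78754805 to 78754834 of chromosome 2 (minus strand) within an exon. Those of *BNIP3* and *BNIP3L* are split by an intron, between 140366087 and 140371708 of chromosome 14 (minus) and between 10318887 and 10326090 of the same chromosome (plus). *ULK1* also lies on chromosome 14 (23423693 to 23448130, minus) and *ATG12* on chromosome 2 (119948443 to 119965702, minus). The coding sequences of *BNIP3* and *BNIP3L* were 71.8% identical.

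Transcripts of all 10 genes were assembled in all 12 libraries, although those of *ATG12* were not assigned to the gene in any of them. *SQSTM1* was the most abundant, at 283 to 595 FPKM, and ranked 87th of the 9127 genes tested by mean level. No library of *BNIP3* (133 to 218 FPKM), the next gene, reached the lowest level of *SQSTM1*. Below them, *GABARAP* (44.4 to 164 FPKM), *MAP1LC3A* (46.1 to 145 FPKM), *MAP1LC3B* (60.2 to 88.6 FPKM) and *GABARAPL2* (37.5 to 62.5 FPKM) each overlapped the next gene in the order. *ULK1* (14.4 to 23.4 FPKM) and *GABARAPL1* (5.82 to 26.8 FPKM) overlapped each other and lay wholly below *GABARAPL2*. *BNIP3L* (1.29 to 2.55 FPKM) and *ATG12* (0.797 to 2.22 FPKM) overlapped each other and formed the lowest pair by these measures. *ATG12* and *GABARAP* are given here per exon base (only bases on annotated exons counted), the other genes by whole transcript length. With the whole length counted, *ATG12* was at 12.3 to 28.3 FPKM and *GABARAP* at 126 to 262 FPKM. The places of these genes in the order therefore depend on the measure.

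**Figure D1:**
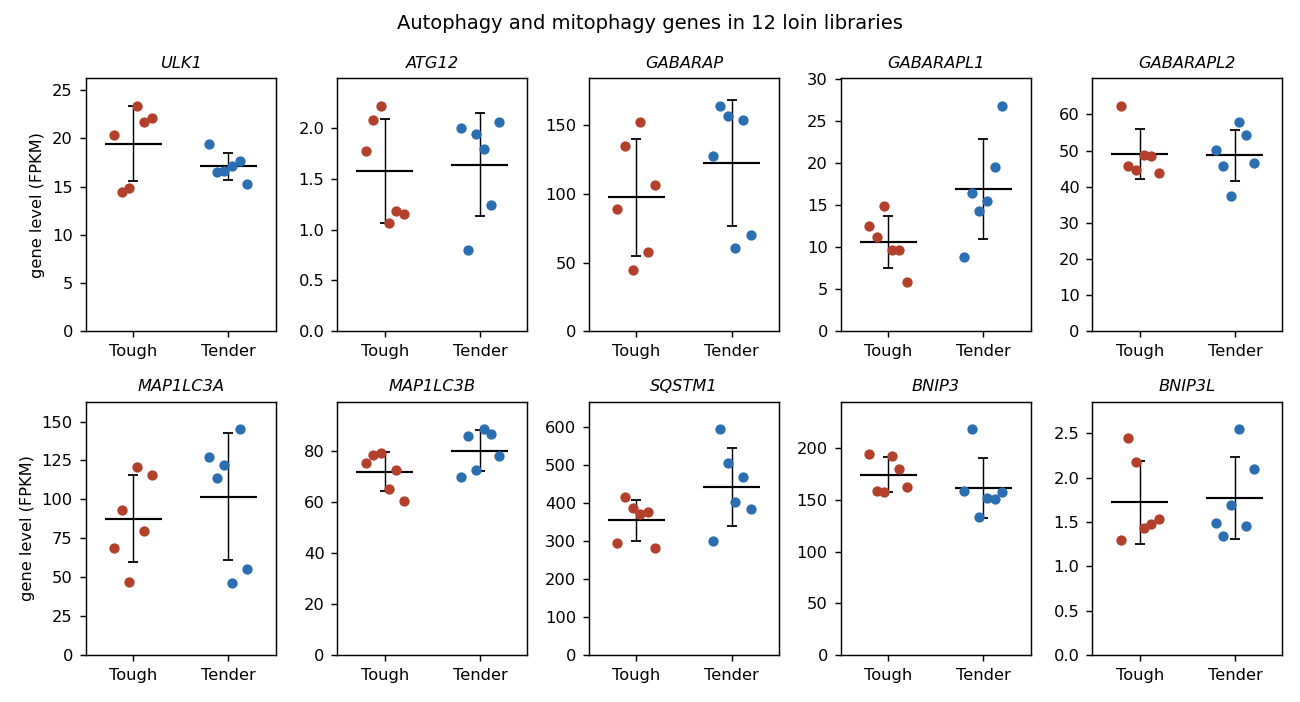
Level in FPKM (vertical axis, from 0, a scale per gene) of the 10 genes in 6 Tough (left, red) and 6 Tender (right, blue) libraries, with the mean and SD in black. In *GABARAPL1* 4 Tender libraries lie above all Tough ones, and in *GABARAP* and *MAP1LC3A* the libraries of each group spread widely.

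None of the 10 genes was called different between the groups (a 1.5-fold difference with p up to 0.05 and adjusted p up to 0.10), and neither was any of the 9127 genes tested (0%). The study, with Cuffdiff on these animals and a further Tender one, did report genes that differed between the groups. Its calls and these rest on different tests. At an unadjusted p of at most 0.05, 1 of the 10 genes passed, *GABARAPL1*, lower in Tough, against 2.44% of all genes in either direction (2.73% by level per exon base) and 1.72% in this direction. The estimate was lower in Tough for 7 of the 10 genes, where 60.1% of all genes were lower in Tough. The median log2 fold change (Tough over Tender) was -0.097 over the 10 genes and -0.039 over all genes. No gene of the 10 had groups without overlap, as 0.0986% of all genes did. A share of 7 in 10 is near that background and is no result about these genes. The tests were limma fits on log2(FPKM + 0.5) with Benjamini-Hochberg adjustment, and the adjusted p of each of the 10 genes was 1.00.

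**Figure D2:**
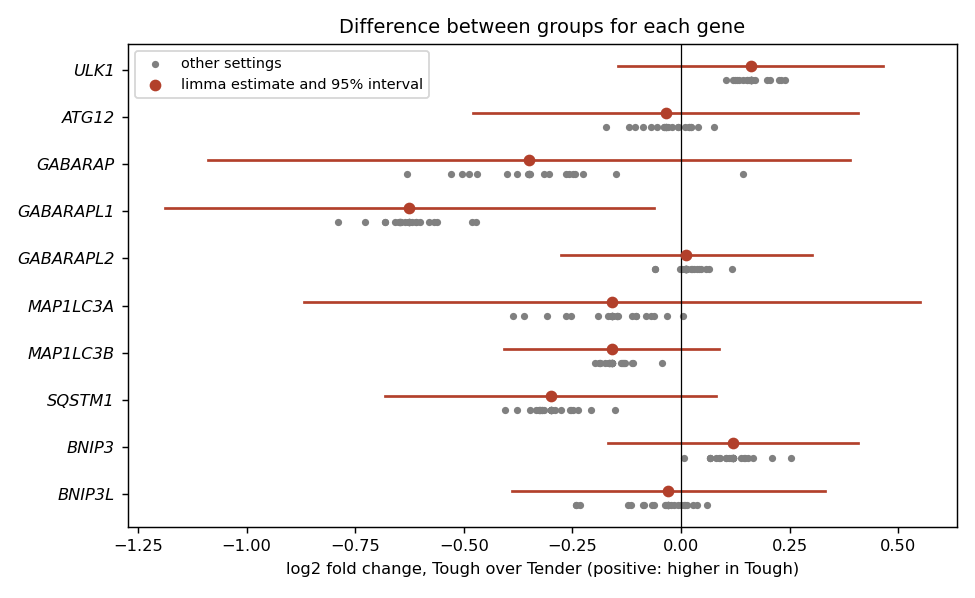
Log2 fold change, Tough over Tender (horizontal axis, positive is higher in Tough), of the 10 genes with its 95% interval (red), and below each the estimates under other settings and without each library in turn (grey, leaving out the setting that asks for 90% of a transcript in the gene and, for *GABARAP*, those by assigned transcripts). The interval of *GABARAPL1*, -1.19 to -0.063, is the only one that leaves out 0.

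*ULK1* encodes the kinase that receives the nutrient signals of mTORC1 and AMPK. It was at 20.3, 14.4, 14.9, 23.4, 21.7 and 22.2 FPKM in Tough 1 to 6, and at 19.5, 16.5, 16.6, 17.1, 17.7 and 15.3 FPKM in Tender 1 to 6. In 4 Tough libraries it exceeded all Tender libraries, and in the other 2, Tough 2 and Tough 3, it was below all of them. The log2 fold change was 0.16 (SE 0.14, exact permutation p = 0.236, two-sided, n = 6 per group).

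*ATG12* encodes the ubiquitin-like protein that joins ATG5 and helps to load ATG8 proteins onto lipid. It was at 1.77, 2.08, 2.22, 1.07, 1.18 and 1.15 FPKM in Tough 1 to 6 and at 2.00, 0.797, 1.94, 1.80, 1.24 and 2.06 FPKM in Tender 1 to 6. Libraries of both groups were found at either end of the range. The log2 fold change was -0.035 (SE 0.21, exact permutation p = 0.868). Its value is a level per exon base. Each transcript's FPKM is multiplied by its bases on the gene's annotated exons, then divided by the gene's exonic length. In every library the assembled *ATG12* transcript ran 2747 to 6548 bases past the annotated 3′ end, and 6.26% to 14.1% of its bases were in annotated exons. The annotated first exon also overlaps the start of *AP3S1* on the opposite strand, and whether the libraries mark strand is not stated, so reads of the shared stretch cannot be told apart.

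Among the ATG8 genes, *GABARAPL1* alone had an unadjusted p of at most 0.05, with lower levels in Tough. It was at 12.5, 11.2, 14.8, 9.65, 9.64 and 5.82 FPKM in Tough 1 to 6 and at 8.86, 16.4, 14.2, 15.5, 19.6 and 26.8 FPKM in Tender 1 to 6. Tender 2, 4, 5 and 6 were above all Tough libraries and Tough 6 was below all Tender ones, while Tender 1 was below 5 Tough libraries. The means were 10.6 ± 3.04 FPKM in Tough and 16.9 ± 5.98 FPKM in Tender (SD, n = 6 each), a ratio of means of 0.628. The limma estimate on the log2(FPKM + 0.5) scale was -0.63 (SE 0.26), which is a fold change of 0.648 (95% interval 0.439 to 0.957), with p = 0.0322 in limma, p = 0.0455 in the exact permutation test on mean log2 values and p = 0.0649 in the exact Wilcoxon test, all two-sided. *GABARAPL1* is among the genes the study listed on these animals and a further Tender one, so its place here is not independent of that list. Without Tough 4, 5 or 6, or without Tender 2, 5 or 6, the limma p was 0.0503 to 0.0750, and without Tender 1 it was 0.0058. Estimates were also higher in Tender for all tested markers of red blood cells (2) and endothelium (4). The same held for 4 of 5 macrophage and 2 of 3 adipocyte markers. Estimates were higher in Tough for 6 of 7 muscle fibre and all 3 smooth muscle markers. The part of these cells in this difference was not tested.

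*GABARAPL1* rested on a 4-exon transcript with the annotated introns in all 12 libraries. Cufflinks' own 95% limits lay within 4.41% to 8.33% of the transcript level. That is far narrower than the spread between animals of a group, whose SD on the log2 scale was 0.47. No other stretch of the genome matched its coding sequence at 85% identity over 80% of its length.

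*GABARAPL2*, whose protein is also known as GATE-16, differed least between the groups among the ATG8 genes. It was at 62.5, 45.7, 44.6, 48.8, 48.4 and 43.9 FPKM in Tough 1 to 6 and at 50.1, 45.7, 37.5, 57.9, 54.2 and 46.5 FPKM in Tender 1 to 6. The group means of 49.0 ± 6.89 FPKM in Tough and 48.6 ± 7.17 FPKM in Tender differed by far less than the SD. Its log2 fold change of 0.012 had a 95% interval of -0.28 to 0.30 (exact permutation p = 0.911). The ratio of *GABARAPL1* to *GABARAPL2* was 0.218 ± 0.0663 in Tough and 0.353 ± 0.134 in Tender (SD, n = 6 each).

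*MAP1LC3B* encodes the LC3 protein most often used to count autophagosomes. It was at 75.2, 78.4, 79.4, 65.0, 72.8 and 60.2 FPKM in Tough 1 to 6 and at 69.9, 85.8, 72.5, 88.6, 86.6 and 77.9 FPKM in Tender 1 to 6. Tough 4 and 6 were below all Tender libraries, and Tender 2, 4 and 5 were above all Tough ones. The log2 fold change was -0.16 (SE 0.11, exact permutation p = 0.102). Its libraries lay closer together than those of the other 9 genes, with a within-group SD of 0.15 on the log2 scale, smaller than in all but 2.05% of tested genes and against a median of 0.34. Its transcript ended 398 to 493 bases past the annotated 3′ end in all libraries, with the same introns throughout.

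*GABARAP* and *MAP1LC3A*, each a major ATG8 transcript of this muscle, had the largest within-group SD of the 10 genes, 0.66 and 0.61 on the log2 scale. *GABARAP*, given per exon base, was at 88.8, 135, 44.4, 152, 57.7 and 107 FPKM in Tough 1 to 6 and at 128, 164, 157, 60.9, 154 and 70.0 FPKM in Tender 1 to 6. *MAP1LC3A* was at 69.0, 93.1, 47.2, 121, 79.8 and 116 FPKM in Tough 1 to 6 and at 127, 113, 122, 46.1, 145 and 55.5 FPKM in Tender 1 to 6. Tough 3, Tender 4 and Tender 6 were low for both genes, so that each group held high and low libraries. The log2 fold changes were -0.35 for *GABARAP* (SE 0.34, exact permutation p = 0.361) and -0.16 for *MAP1LC3A* (SE 0.33, exact permutation p = 0.645). The *GABARAP* value was -0.15 without Tough 3 and -0.53 without Tender 4, and the *MAP1LC3A* value was 0.0046 without Tough 3 and -0.36 without Tender 4.

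By these measures, the low libraries were those in which the assembled transcript had another end. The *GABARAP* transcript was 865 to 1125 bases long in 7 libraries, with levels of 107 to 164 FPKM. In the other 5, Tough 1, 3 and 5 and Tender 4 and 6, it began further upstream, was 1652 to 4071 bases long and had levels of 44.4 to 88.8 FPKM. In Tough 3 and Tough 5 it had 11 exons in place of 4 and started 7978 and 7973 bases upstream of the annotated start, near the start of *ELP5*, a gene on the opposite strand whose annotation begins 7974 bases away. By assigned transcripts alone *GABARAP* is therefore listed at 0 in Tough 3, Tough 5, Tender 4 and Tender 6. The order of the libraries depends on the measure. With the whole length of each transcript counted to the gene, Tough 3 and Tough 5 were the highest libraries of *GABARAP*, at 203 and 262 FPKM, and the others were at 126 to 194 FPKM.

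For *MAP1LC3A* the change was at the other end. In Tough 1, Tough 3, Tender 4 and Tender 6 the transcript was 377 to 473 bases long and stopped before the coding end printed above, and the gene level was 46.1 to 69.0 FPKM. In the other 8 libraries it was 954 to 1134 bases long and the level was 79.8 to 145 FPKM. The FPKM of the transcripts themselves showed no such order, at 95.7 to 176 for the short ones and 71.8 to 133 for the others. The gene level multiplies this FPKM by the transcript length and divides by the exonic length of the gene. A short transcript therefore lowers the *MAP1LC3A* level by construction, as in Tough 1, where 176 FPKM over 377 bases gave 69.0. Whether these ends were used in the muscle or arose in assembly was not tested.

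**Figure D3:**
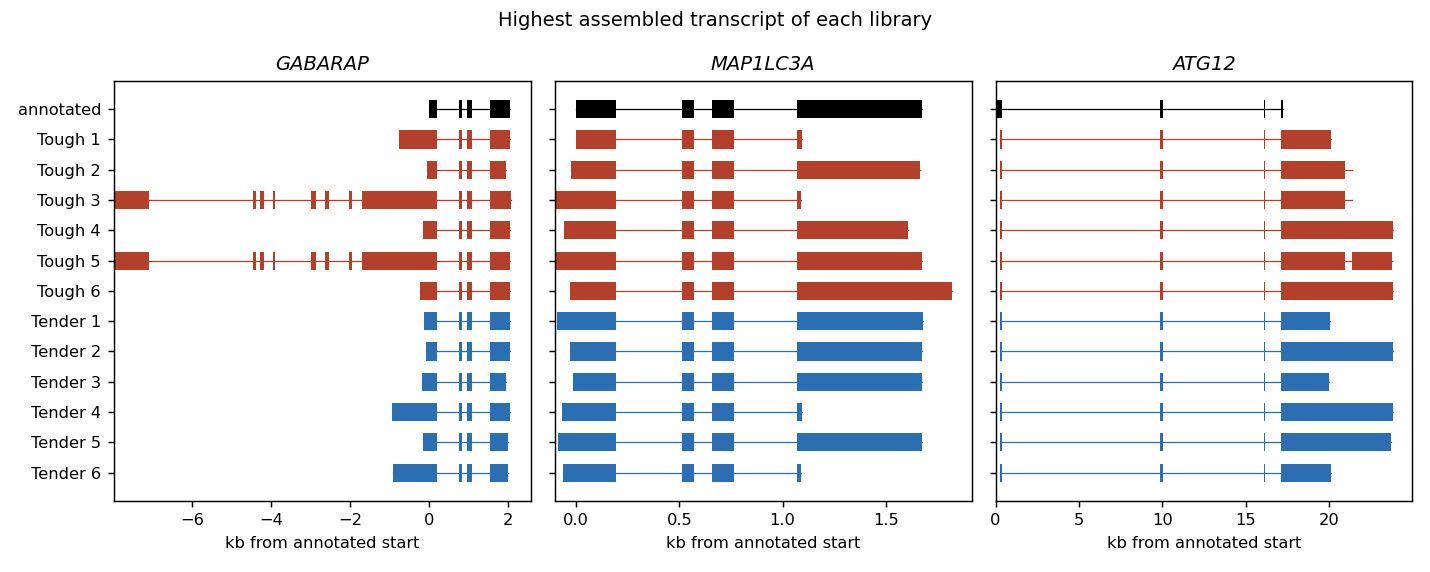
Exons (boxes) and introns (lines) of the highest assembled transcript of *GABARAP*, *MAP1LC3A* and *ATG12* in each library, Tough in red above Tender in blue, under the annotated transcript in black (horizontal axis, kb from the annotated start in the direction of transcription). *GABARAP* begins upstream in 5 libraries, *MAP1LC3A* lacks most of its last exon in 4, and *ATG12* runs past its annotated 3′ end in all 12.

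The 5 ATG8 genes together reached 316 ± 61.1 FPKM in Tough and 370 ± 79.0 FPKM in Tender (SD, n = 6 each), with ranges of 230 to 397 FPKM and 269 to 459 FPKM that overlapped for most libraries. *GABARAP* made up 29.5 ± 7.92% of the sum in Tough and 32.0 ± 6.75% in Tender, and *MAP1LC3A* 27.3 ± 5.41% in Tough and 26.5 ± 6.54% in Tender. *MAP1LC3B* held 23.7 ± 6.59% in Tough and 22.7 ± 6.29% in Tender. *GABARAPL2* held 16.0 ± 3.66% in Tough and 13.9 ± 4.54% in Tender. *GABARAPL1*, the gene with the smallest p, was also the smallest part of the family, 3.56 ± 1.63% in Tough and 4.90 ± 2.60% in Tender. These sums and shares carry the changes of transcript end described for *GABARAP* and *MAP1LC3A*, and no test was made on them. They also add *GABARAP* per exon base to the other genes by whole transcript length. Per exon base, *MAP1LC3B* was at 48.3 to 69.3 FPKM, below its range given above, so the shares depend on this mix of measures.

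**Figure D4:**
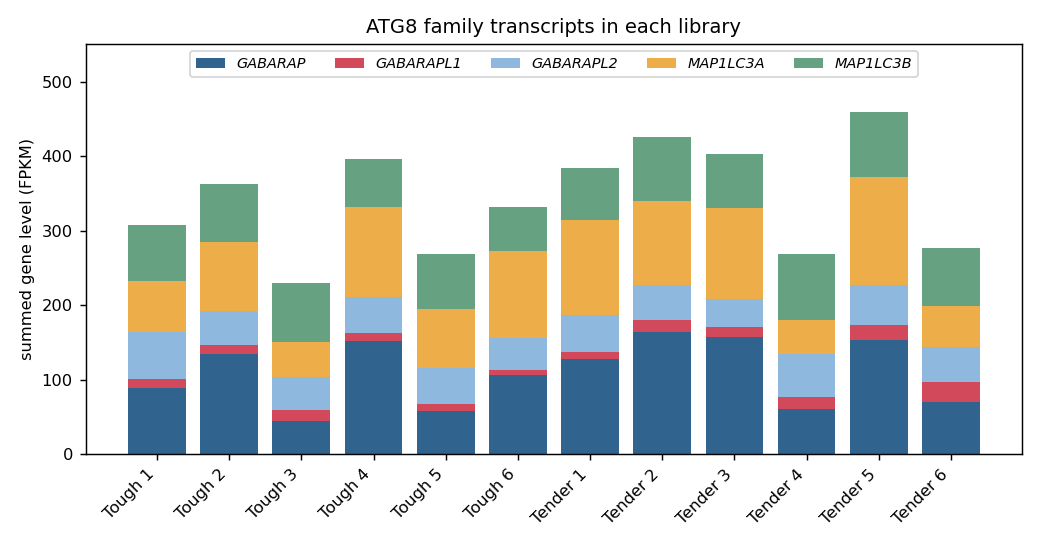
Summed level in FPKM (vertical axis, from 0) of the 5 ATG8 genes in each library, Tough 1 to 6 on the left and Tender 1 to 6 on the right, stacked by gene. *GABARAP* is given per exon base and the other genes by whole transcript length. The lowest sum is that of Tough 3 (230 FPKM) and the highest that of Tender 5 (459 FPKM), and most of the difference in height lies in *GABARAP* and *MAP1LC3A*.

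*SQSTM1* encodes the cargo receptor that is itself degraded with its cargo. It was at 294, 415, 386, 372, 378 and 283 FPKM in Tough 1 to 6 and at 299, 595, 506, 403, 469 and 383 FPKM in Tender 1 to 6. Tender 2, 3 and 5 were above all Tough libraries and Tough 1 and 6 were below all Tender ones, with the rest mixed. The means were 354 ± 53.5 FPKM in Tough and 442 ± 103 FPKM in Tender (SD, n = 6 each). The limma log2 fold change was -0.30 (SE 0.18, 95% interval -0.68 to 0.082, exact permutation p = 0.108). Without Tender 1, its limma p was 0.0264, with an adjusted p of 1.00.

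*BNIP3*, a gene known to rise in hypoxia, was at 195, 159, 158, 192, 179 and 162 FPKM in Tough 1 to 6 and at 159, 218, 133, 151, 151 and 157 FPKM in Tender 1 to 6. The highest and the lowest library both belonged to the Tender group. The log2 fold change was 0.12 (SE 0.13, exact permutation p = 0.297). It was 0.21 without Tender 2 and 0.068 without Tender 3.

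*BNIP3L*, whose protein is best known for clearing mitochondria from maturing red blood cells, was at 1.29, 2.45, 2.18, 1.43, 1.47 and 1.53 FPKM in Tough 1 to 6 and at 1.49, 1.34, 1.69, 2.55, 1.46 and 2.09 FPKM in Tender 1 to 6. The groups overlapped throughout, with a log2 fold change of -0.029 (SE 0.17, exact permutation p = 0.831). *BNIP3* exceeded its relative in every library, by 108 ± 34.1 times in Tough and 97.8 ± 36.7 times in Tender (SD, n = 6 each). By the FPKM of the transcripts, not weighted by length, the ratio was 64.2 ± 16.1 in Tough and 54.9 ± 29.0 in Tender. Cufflinks' own 95% limits lay 7.02% to 35.6% from the level over its 15 assembled transcripts, the widest upper value among the 10 genes.

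How the genes varied together was examined for the 45 pairs over the 12 libraries. *GABARAP* and *MAP1LC3A* had the highest Pearson correlation of log2 levels (r = 0.89, Spearman's rho = 0.76, permutation p = 0.00035 and 0.00605, adjusted p = 0.0157 and 0.136). It was 0.85 within Tough and 0.96 within Tender, and 0.92 without the 2 libraries farthest from the median. The transcript ends described above were changed for both genes in 4 libraries and for *GABARAP* only in Tough 5. Over the 7 libraries with the usual ends of both genes, r was 0.21 (rho = 0.036, exact permutation p = 0.637 and 0.963), and 0.61 without the 2 farthest of them. These 7 are also the libraries with the higher *GABARAP* levels, so their range is narrower. With the FPKM of whole transcripts, not weighted by length, r was 0.36 over the 12 libraries (rho = 0.38, permutation p = 0.255 and 0.217). The part of the transcript ends in the correlation was not tested.

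The next pair was *GABARAPL1* and *MAP1LC3B*, with r = 0.77 and rho = 0.78 (permutation p = 0.00321 and 0.00397, adjusted p = 0.0722 and 0.136). It was 0.90 within Tough and 0.50 within Tender, and 0.83 without the 2 farthest libraries. *BNIP3L* and *ATG12*, the pair of lowest level by the measures used here, followed at r = 0.64 and rho = 0.71 (permutation p = 0.0244 and 0.0129, adjusted p = 0.142 and 0.152). The 3 lowest correlations were those of *ULK1* with *BNIP3L* (r = -0.68, rho = -0.57), with *MAP1LC3B* (r = -0.67, rho = -0.62) and with *GABARAPL1* (r = -0.67, rho = -0.59). The adjusted p of r was 0.142 for each of the 3 by permutation, so they did not pass over the 45 pairs. Within Tough these 3 were -0.92, -0.78 and -0.62, and within Tender -0.37, -0.28 and -0.84. Without the 2 farthest libraries they were -0.69, -0.38 and -0.54.

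Shear force was compared with each gene within each group only, since selection separates the groups, which made 20 relations. None passed adjustment. The smallest exact p, 0.0319 with an adjusted p of 0.319, was reached by *BNIP3* and *ATG12* in Tender animals. The *BNIP3* relation (r = -0.96, rho = -0.49) turned to r = 0.93 without the 2 animals farthest from the median shear force, so it rested on those animals. The *ATG12* relation (r = 0.87, rho = 0.71) was 0.62 without them.

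The rest of the pathway was followed through 8 lists with 61 other genes, chosen by function. Of these, 54 were tested, 12 with estimates higher in Tough and 42 lower in Tough, beside the 60.1% of all genes that were lower in Tough. None was called, and 2 passed an unadjusted p of 0.05, both lower in Tough, beside the background of 1.72% in this direction. The median log2 fold change of the 54 genes was -0.085, against -0.039 for all genes. All 10 genes of the mitophagy list, among them *USP30* (-0.20, exact permutation p = 0.156) and *MUL1* (-0.21, p = 0.284), a mitochondrial deubiquitinase and a mitochondrial ubiquitin ligase, had log2 fold changes below 0, of -0.21 to -0.0092, and none passed the test.

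*WIPI1*, which binds the phosphoinositide of the growing autophagosome, was at 16.1, 24.5, 34.0, 17.1, 10.4 and 12.8 FPKM in Tough 1 to 6 and at 21.9, 24.0, 36.3, 24.4, 44.2 and 27.3 FPKM in Tender 1 to 6. In 4 Tough libraries it was below all Tender ones, while Tough 3 was above 4 of them. Its log2 fold change was -0.68 (SE 0.28, limma p = 0.0284, adjusted p = 1.00, exact permutation p = 0.0455).

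*CALCOCO2* (NDP52), a receptor that brings ubiquitin-tagged bacteria and mitochondria to ATG8 proteins, was at 40.5, 40.7, 41.8, 32.6, 32.9 and 26.7 FPKM in Tough 1 to 6 and at 46.5, 47.0, 47.5, 46.1, 42.5 and 41.3 FPKM in Tender 1 to 6. The groups met only where Tough 3 was above Tender 6. Its log2 fold change was -0.34 (SE 0.13, limma p = 0.0181, adjusted p = 1.00, exact permutation p = 0.00433).

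No gene of the other lists passed an unadjusted p of 0.05. Among the initiation genes, *ULK2*, the relative of *ULK1*, averaged 5.96 ± 0.950 FPKM in Tough and 8.62 ± 3.54 FPKM in Tender (log2 fold change -0.42, exact permutation p = 0.117), and *ATG13*, a subunit of the same complex, had -0.21 (p = 0.134). The nucleation genes *RUBCN*, an inhibitor of the lipid kinase complex, and *ATG14*, its autophagy-specific subunit, had -0.22 (exact permutation p = 0.199) and 0.17 (p = 0.286). *WIPI2* and the lipid scramblase gene *ATG9A* had -0.17 (exact permutation p = 0.411) and -0.099 (p = 0.346). *ATG4A*, a protease of the ATG8 tail, and *ATG16L1*, the partner of the ATG12 conjugate, had -0.11 (exact permutation p = 0.361) and -0.15 (p = 0.474). The receptor gene *TAX1BP1* had -0.17 (exact permutation p = 0.465). *PLEKHM1* and *RAB7A*, which act where autophagosomes meet lysosomes, had -0.24 (exact permutation p = 0.152) and -0.20 (p = 0.316). *TFEB*, the main transcription factor of lysosomal and autophagy genes, had the highest fold change of the lists, with 16.8 ± 3.58 FPKM in Tough and 12.8 ± 4.24 FPKM in Tender (log2 fold change 0.40, limma p = 0.0736, exact permutation p = 0.0909, n = 6 each). Its relative *MITF* had -0.076 (exact permutation p = 0.742).

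**Figure D5:**
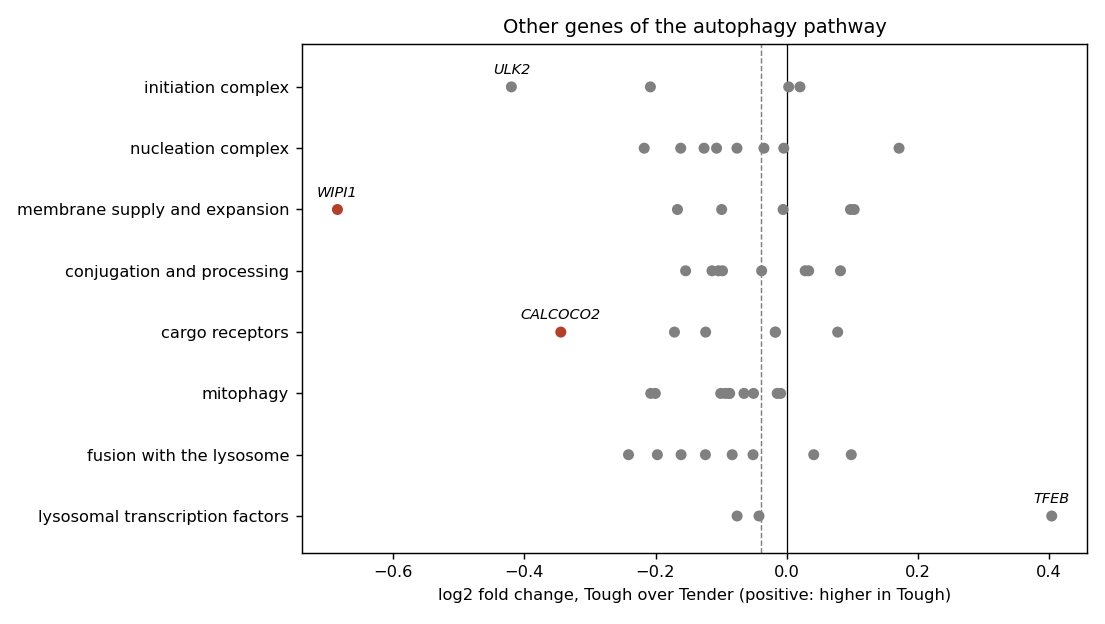
Log2 fold change, Tough over Tender (horizontal axis, positive is higher in Tough), of the tested genes of 8 pathway lists (rows, a point per gene), with the median of all genes as a dashed line. *WIPI1* and *CALCOCO2* (red) passed an unadjusted p of 0.05, the other genes named have a p of at most 0.1, and *TOLLIP* is not drawn because its assigned level is listed at 0 in 10 libraries.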

How the data were processed

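RNA from the loin muscle of 6 Tough and 6 Tender pigs was analysed, in groups taken from the sample labels. The authors checked reads with FastQC, trimmed them (Trim Galore), aligned them to Sscrofa11.1 (TopHat2 2.1.0) and assembled each library (Cufflinks 2.2.1). The deposited files give exons, transcript levels in FPKM as the authors computed them, and an isoform score by Cufflinks, also deposited by the authors and left unused. They hold no read counts, so depth per library is not known from them. Each library has 25798 to 31353 transcripts.

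Annotation Release 106 of NCBI for Sscrofa11.1 served as reference, and a transcript was assigned where at least 50% of their exonic bases lay in a gene on their strand. Transcripts without strand could match either. Gene FPKM sums, over these transcripts, FPKM weighted by transcript length and divides by the exonic length. *GABARAP* and *ATG12* are given per exon base, which was decided after seeing their values.

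The test was that of limma 3.58.1 (R 4.3.3, eBayes with trend, group only) on log2(FPKM + 0.5) of genes averaging over 0.5 FPKM, over 9127 genes, and 9393 for the per exon base values. Fold changes on this scale are understated for low genes. Exact permutation tests used the 924 ways to form groups of 6 and the 720 pairings within a group, and correlations between genes 100000 resamples. All are two-sided. The p-values measure the spread between animals.

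Named were the 10 genes, pathway genes with p of at most 0.05 and up to 2 more per list by smallest p, and the 3 highest and 3 lowest correlations. Genes and lists were chosen with earlier results of these data known. On simulated data of 9127 genes, the test called 70% of genes given a log2 change of 1 and 92% of those given 2, with 10 false calls. There the genes varied independently and 100 were given each change. These shares are averages over genes of all spreads, so they do not give the chance of calling any of the 10 genes. Other steps used Python 3.11.15 with scipy 1.17.1, matplotlib 3.10.9, pandas 2.3.3 and numpy 2.4.6. Alternatives were other pseudocounts, filters, scalings, gene measures and weights, a block for the animal number, and leaving out each library.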

Additional observations from a re-analysis of the deposited data

Results flagged for a closer look

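*GABARAPL2* in Tough 1, at 62.5 FPKM, stood apart from the other 5 Tough libraries, which were at 43.9 to 48.8 FPKM. *BNIP3* in Tender 2, at 218 FPKM, stood apart from the other 5 Tender libraries, which were at 133 to 159 FPKM. The gap to the nearest library was a share of 0.738 of the range of the group for *GABARAPL2* and 0.702 for *BNIP3*, above Dixon's 95% critical value for 6 samples. Of 20 groups examined these 2 passed, and chance alone passes about 1 in 20.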

How the results depend on the processing

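None of the 10 genes, where tested, was called under 17 other settings or without any of the 12 libraries. Among all genes, 2 of 9413 were called per exon base without Tender 2, neither of them one of the 10. All 10 were tested except under 5 settings, with 8 genes where 90% of a transcript had to lie in the gene (the 90% rule) and 9 under the other 4. *GABARAPL1* kept its direction throughout (log2 fold change -1.35 to -0.47) and had p of at most 0.05 in 20 of 28 of these fits (limma p 0.0058 to 0.0934, adjusted p 0.683 to 1.00), but its exact Wilcoxon p was 0.0649. The count of genes at p of at most 0.05 was 0 with the animal number as a replicate block and 0 under the 90% rule, and ranged from 0 to 2 without a library. Same-numbered animals did not deviate together (correlations -0.22 to 0.02), so the numbers do not pair them. With the 90% rule, the median was -0.39 and *BNIP3* turned to -1.31. The -1.35 of *GABARAPL1* came from the same rule. In Tough 4 that rule left out the transcript of *GABARAPL1*, with 83.2% of its bases in the gene. It also left out the *BNIP3* transcripts of Tough 4, at 82.0% and 85.3%, so neither gene had a counted transcript in that library. *BNIP3L* turned to 0.0094 with median-of-ratios scaling and 0.038 with array weights. With length-weighted levels and no minimum share, added after seeing the data, *GABARAP* turned to 0.14 and *ATG12* to 0.077. Leaving out a library gave ranges on both sides of 0 for *GABARAPL2* (-0.059 to 0.065), *BNIP3L* (-0.12 to 0.061), *MAP1LC3A* (-0.36 to 0.0046) and *ATG12* (-0.17 to 0.039). Without a library *GABARAP* ranged from -0.53 to -0.15 and *BNIP3* from 0.068 to 0.21, and array weights gave -0.63 for *GABARAP*. Of 274 values over the 10 genes, 254 kept their sign and 20 turned. Cufflinks gave limits of up to 35.6% of the transcript level for *BNIP3L* and up to 8.33% for *GABARAPL1*.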

Other observations

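*TOLLIP*, which encodes an adaptor that brings ubiquitin-tagged protein aggregates to ATG8 proteins, showed how far the rule for assigning transcripts can decide a value. By assigned transcripts its level is 0 in each Tough library and in 4 of the 6 Tender ones, and 187 FPKM in Tender 3 and 182.3 FPKM in Tender 6. Per exon base it was present in all 12, at 67.9 to 112 FPKM in Tough and 68.9 to 118 FPKM in Tender, with a log2 fold change (Tough over Tender) of -0.055 (SE 0.16, exact permutation p = 0.725, two-sided, n = 6 each). Stretches elsewhere in the genome matched at least 80% of a coding sequence with at least 85% identity for 2 of the 10 genes, 1 stretch for *GABARAP* (91.3% identity) and 2 for *MAP1LC3B* (highest 89.4%), and no assembled transcript lay on any of them.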
